A study of Mus musculus with 2 samples.

Results

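The sites described here are the positions scored for RNA modification within the first 150 nucleotides (nt) of a transcript in day 6 mouse retinal organoids. They were chosen by position and depth alone: listed at position 150 or less in replicate 2, with at least 20 reads there, and on 1 transcript per named gene, that with the most such sites. This gave 343 sites in 324 genes, out of 16212 sites with at least 20 reads in replicate 2. In replicate 1, 226 of the 343 were listed at some depth, 125 of them with at least 20 reads. The other 117 had no replicate 1 value.

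Both samples were aggregates of the wild-type Rx:GFP cell line, whose green fluorescent protein reports the eye-field gene Rx (Rax), grown with AGN at 0.1 µM for 6 days. Poly(A) RNA, 1 µg a library, was read natively on nanopores with the RNA002 chemistry for about 48 h. Both libraries belong to 1 group, so no condition was compared (n = 2). The labels do not say whether they came from separate cultures, so the spread between them may be technical.

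N6-methyladenosine (m6A) is placed on mRNA mostly by the METTL3 and METTL14 complex, at an A within a short consensus that includes GGAC. On most mRNAs m6A is known to gather around the stop codon and in the 3′ untranslated region. The start of a transcript holds the cap, the 5′ untranslated region, in which the small ribosomal subunit scans, and, where that region is short, the first codons. In direct RNA sequencing reads begin at the poly(A) tail, so the start of the transcript is the last part to be read. For each position the tables give a 5-base motif, the fraction of reads scored as modified (0 to 1) and the coverage, a read count. All listed positions were on 1 of 4 motifs, in DNA letters: GGACA, the C-ending GGACC, the T-ending GGACT and, with A first, AGACT. A site here is a scored position and not proven m6A. The replicate error of a fraction is given as the SD of the 2 libraries.

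The letters around the sites nearest the start could be seen for a few genes. RefSeq's first 50 bases after the gene start (GRCm38.p6) were at hand for 36 of the 47 early sites at position 49 or less. In 9 of these the listed motif began 3 bases before the listed position, counted from the RefSeq start, and no other offset was shared by more than 2. At these 9 the listed position is therefore the C that follows the central A, if both annotations start at the same base. The following 5 windows of 29 bases, on the RNA strand, are shown because 4 of them were measured in both libraries and the last has the AGACT motif, which the others lack. Capitals mark the listed motif.
Brk1, position 17, chr6:113604773-113604801 (+): gccgccatggcgGGACAagaggatccggt
Psmc6, position 33, chr14:45329841-45329869 (+): tctcatcatggcGGACCctagagataagg
Alyref, position 45, chr11:120598316-120598344 (-): cccgccatggccgacaaaatGGACAtgtc
Yif1a, position 48, chr19:5088559-5088587 (+): ccaaggacatggcggccgcgatcGGACAg
Atp6v0b, position 25, chr4:117887292-117887320 (-): gggcgggccgacAGACTgcggggcggacg

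In the first 4 windows an ATG stood upstream of the motif, its A 6 bases before the motif's first base in Brk1, 5 in Psmc6, 14 in Alyref and 15 in Yif1a. The Yif1a window also holds a GGACA further upstream, in lower case, at which no position with at least 20 reads was listed in replicate 2. Of the 9 matched windows these 4 had an ATG upstream of the motif and the other 5 had none, Atp6v0b among them. Of all 32851 RefSeq windows, 44.3% held an ATG anywhere in their 50 bases, and 39.9% held one on the opposite strand. In the 9 matched windows only the bases before the motif were searched, so the shares are unlike measures. Brk1, a subunit of the WAVE actin regulator, had a fraction of 0.768 (97 reads) in replicate 1 and 0.763 (169 reads) in replicate 2. Psmc6, an ATPase of the proteasome base, had 0.333 over 80 reads and 0.448 over 170 reads. Alyref, an mRNA export adaptor, had 0.5 over 55 reads and 0.268 over 133 reads. Yif1a, a membrane trafficking protein, had 0.933 over 15 reads and 1 over 30 reads. Atp6v0b, a proton pump subunit, was listed in replicate 2 only, with 0.6 over 29 reads. Of the 4 sites with both values Brk1 differed least between libraries, and Alyref had the largest difference between libraries of any early site with at least 50 reads in both.

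Few sites lay close to the start, and the density rose along the window. The first site was at position 15, in Nxn, a thioredoxin relative, with 0.333 over 20 reads in replicate 2, and no position before 14 was listed in either library at any depth. Positions 1 to 50 held 48 sites, 51 to 100 held 121 and the last 50 nt of the window held 174. Over all transcripts the count of replicate 2 sites was 358 in the first 150 nt, 730 in the next 150 nt and 970 in the 150 nt after those. After Brk1 came Id4, an inhibitor of bHLH transcription factors, at position 20, with 0.5 over 14 reads and 0.467 over 25 reads. Coverage was lower at the start: per transcript the early sites had a median of 0.791 times the coverage of the later sites in replicate 1 (175 transcripts, interquartile range 0.612 to 0.933) and 0.831 times in replicate 2 (282 transcripts, 0.674 to 0.923). Median coverage at the early sites was 21.5 reads in replicate 1 (interquartile range 13 to 53.75, highest 1713) and 39 reads in replicate 2 (26 to 78, highest 2550).

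The motif composition differed from that of later sites on the same transcripts, which were 1063 sites on 282 of the 324 transcripts. GGACC made up 35.0% of the early sites in replicate 1 (95% Wilson interval 29.0% to 41.4%) and 36.7% in replicate 2 (31.8% to 42.0%). Among the later sites it made up 25% (22.2% to 28.0%) and 24.2% (21.7% to 26.8%). GGACT was less frequent early, at 14.6% and 18.4% against 23.1% and 22.4%, as was AGACT, at 11.1% in replicate 1 and 36 of 343 sites in replicate 2, against 16.0% and 18.4%. GGACA hardly differed, at 39.4% and 34.4% early against 35.9% and 35.0% later. The early and later shares overlapped between libraries for GGACA and for no other motif. The sites were chosen in replicate 2, so the replicate 1 shares are not an independent repeat. Among the 187 early sites that had 20 reads in replicate 1 itself, over all transcripts, GGACC made up 35.3%, GGACA 33.2%, GGACT 16.0% and AGACT 15.5%. By that choice the AGACT share was close to the 16.0% of later sites. The intervals cover counting error only, and sites of 1 transcript are not independent. With 2 libraries an exact paired permutation test cannot give a p-value under 0.5, here or for any comparison below.

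Along all transcripts the GGACC share was 35.3% within 150 nt in replicate 1 and 36.6% in replicate 2, then 25.6% and 25.9% in the next 150 nt, and 21.7% and 18.8% past 2400 nt. Within the first 150 nt it was not highest next to the start: it was 20.8% and 29.4% at 1 to 50 nt, over 24 and 51 sites of any motif, and 37.3% and 36.2% at 51 to 100 nt. GGACT made up 29.2% and 27.5% at 1 to 50 nt, 10.7% and 13.4% at 51 to 100 nt, and 26.5% in each library past 2400 nt. GGACA made up 43.8% and 41.2% in the 150 nt after the early window, and 33.2% and 34.4% within it. In RefSeq sequence, without any reads, the first 50 bases after the gene start held GGACC in 9.43% of 318 windows of the member genes, GGACA in 7.23%, GGACT in 5.66% and AGACT in 4.72%. Over all 32851 windows the shares were 5.13%, 5.40%, 5.76% and 5.14%. On the opposite strand, in the same order, the member genes had 7.23%, 4.40%, 4.09% and 3.77%, and all windows 4.97%, 5.28%, 4.87% and 5.18%. GGACC was thus the most frequent of the 4 on either strand of the member genes' windows. The genes were chosen for a listed motif near the start, so their windows are no independent sample.

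**Figure D1:**
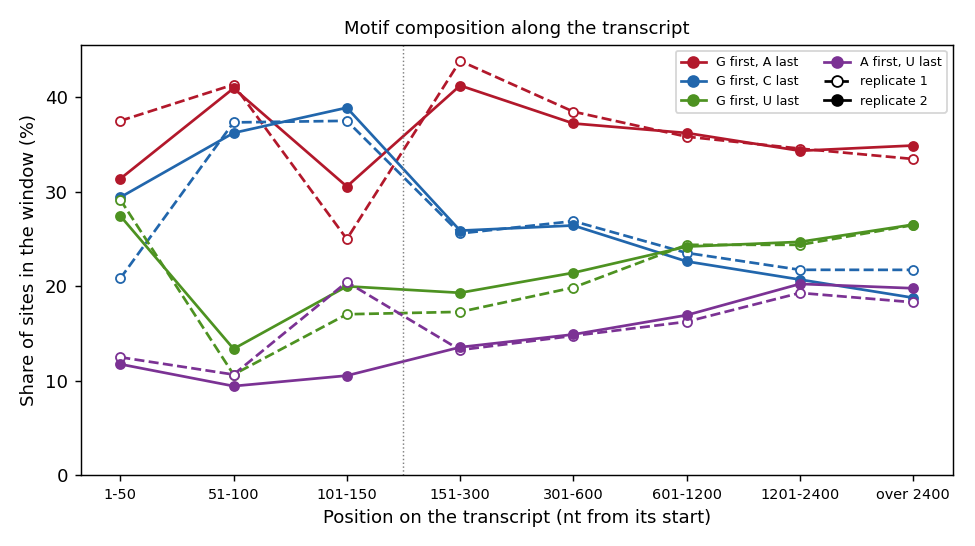
Share of each 5-base motif among all sites with at least 20 reads (y axis, percent) by position on the transcript (x axis, nt; dotted line at 150 nt), for replicate 1 (open, dashed) and replicate 2 (filled, solid). Motifs are named by their first and last base; the C-ending motif is at 37.5% and 38.9% in the last window before the dotted line and at 25.6% and 25.9% in the first after it.

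The fraction modified at early sites followed the motif, as it does elsewhere in these tables. The median over early GGACA sites was 0.769 in replicate 1 (89 sites) and 0.723 in replicate 2 (118 sites), a mean of 0.746 ± 0.0330 (SD, n = 2). AGACT had 0.372 ± 0.00491, GGACT 0.333 ± 0.0599 and GGACC 0.289 ± 0.0231 (each SD, n = 2). At the later sites of the same transcripts the medians were 0.695 ± 0.0526 for GGACA, 0.255 ± 0.00771 for AGACT, 0.225 ± 0.0354 for GGACT and 0.246 ± 0.00608 for GGACC (each SD, n = 2). All 4 early medians were higher in both libraries. The gap was below the SD of the later sites for GGACA and above both SDs for the other motifs. The AGACT median rested on 25 and 36 sites, and with at least 50 reads in both libraries it dropped to 0.210. Within the motifs the range was wide: early GGACA sites ran from 0 to 1 in each library, and early AGACT sites from 0.0667 to 0.920 in replicate 2.

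To hold the gene constant, each transcript's mean over early sites of a motif was set against its mean over later sites of that motif. Over all motifs the early mean was higher in 49 of 87 such pairs in replicate 1 and in 91 of 155 in replicate 2. The median difference was 0.0625 and 0.105 (0.0837 ± 0.0299, SD, n = 2; exact paired permutation test over libraries, two-sided p = 0.5, its smallest value). GGACA had 0.107 over 41 pairs and 0.145 over 67 pairs, or 0.126 ± 0.0265 (SD, n = 2). AGACT had 0.139 over 12 pairs and 0.045 over 13 pairs. GGACT had 0.265 over 8 pairs and 0.0555 over 19 pairs. GGACC was not steady in sign, with -0.0260 over 26 pairs and 0.0955 over 56 pairs. Restricted to the same sites in both libraries with at least 20 reads, 35 pairs were left, with median differences of 0.0462 and 0.0568. Of these, 18 were higher early in both libraries, 15 were lower in both and 2 changed sign. The GGACA pairs then gave 0.212 and 0.197 over 16 pairs, with 9 higher and 6 lower in both libraries. That size depended on which transcript stood for a gene: with the transcript chosen again after this filter, GGACA gave 0.0771 and 0.0931, also over 16 pairs, and all motifs 0.0245 and 0.0416 over 35. The AGACT and GGACT differences turned negative under some settings, so no direction is given for them.

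**Figure D2:**
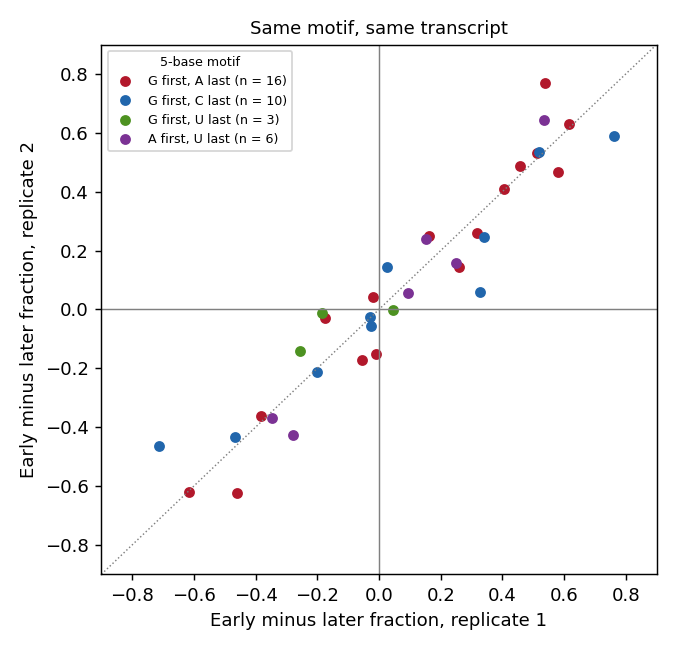
Early minus later fraction of the same motif on the same transcript in replicate 1 (x axis) and replicate 2 (y axis), for the 35 pairs with at least 20 reads at every site in both libraries; each point is 1 transcript and motif, coloured by motif, and the dotted line marks equality. The points lie along the line, with 18 above 0 and 15 below 0 in both libraries.

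Some single transcripts had far larger differences than these medians, in either direction. Lsm7, a subunit of the U6 snRNA-binding and mRNA decay Lsm rings, had GGACA fractions of 0.988 over 89 reads and 0.984 over 141 reads at position 32, and of 0.372 and 0.353 at position 329. The early minus later difference was 0.623 ± 0.0107 (SD, n = 2). Med30, a Mediator subunit, had GGACC fractions of 1 and 0.983 at position 46 against 0.238 and 0.392 at position 305, a difference of 0.676 ± 0.121 (SD, n = 2). Psmd4, a ubiquitin receptor of the proteasome, had 0.653 ± 0.163, the AGACT sites of Apip, a methionine salvage enzyme, 0.589 ± 0.0781, and the GGACC sites of Tm2d2 0.527 ± 0.0130 (each SD, n = 2).

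The opposite order was as marked in other transcripts. Sec13, a subunit of the COPII coat and the nuclear pore, had GGACA fractions of 0.139 over 49 reads and 0.233 over 84 reads at position 123, against 0.755 and 0.855 at position 982. The difference was -0.619 ± 0.00417 (SD, n = 2). Mrpl48, a mitochondrial ribosomal protein, had 0 and 0.0588 at the GGACC motif, position 130 and 0.714 and 0.522 at one at position 220, only 90 nt further. Alyref had -0.541 ± 0.115, the GGACC sites of Jpt1 -0.450 ± 0.0240, and the GGACA sites of Cdc42 -0.372 ± 0.0127 (each SD, n = 2). In these 10 transcripts the early and later values of a motif did not overlap between libraries, which follows in part from choosing them for the size of the difference.

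Within the first 150 nt, GGACC fractions were higher at 51 to 100 nt than in the 50 nt after those. Over all transcripts with at least 20 reads, its median fraction was 0.347 (28 sites) and 0.406 (46 sites) at 51 to 100 nt, 0.232 (33 sites) and 0.25 (70 sites) in the 50 nt after those, and 0.221 and 0.226 from there to 300 nt. The gap between the first and the second of these windows was larger than the difference between libraries in either. At 1 to 50 nt it was 0.588 and 0.389, over 5 and 15 sites. GGACA had 0.85 (31 sites) and 0.738 (52 sites) at 51 to 100 nt, 0.787 (22 sites) and 0.682 (55 sites) in the 50 nt after those, and 0.714 and 0.704 from there to 300 nt. At 1 to 50 nt it was 0.538 and 0.814, over 9 and 16 sites. For GGACA the libraries differed by more than the windows from 51 to 150 nt did. The other motifs had fewer than 20 sites in some of these windows.

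**Figure D3:**
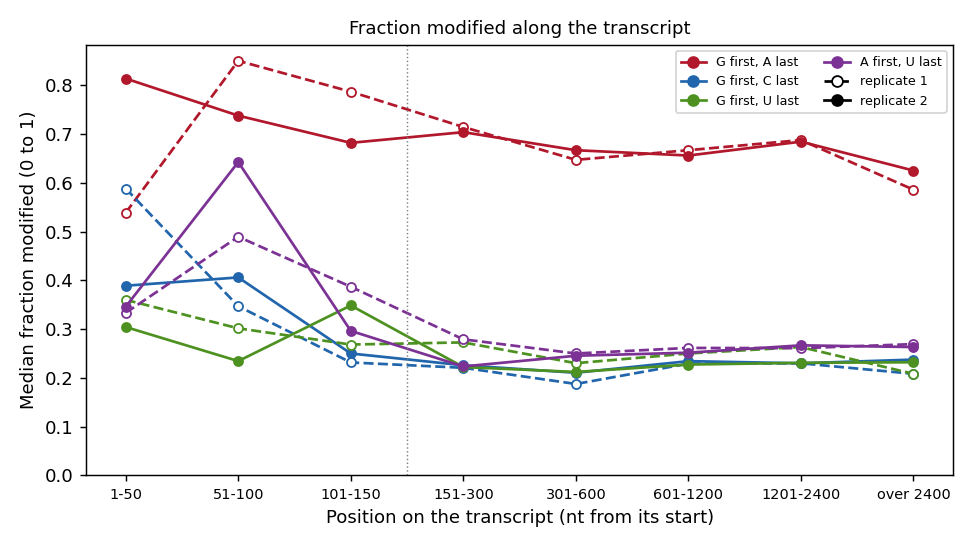
Median fraction modified by motif (y axis, 0 to 1) and by position on the transcript (x axis, nt; dotted line at 150 nt), over all sites with at least 20 reads in replicate 1 (open, dashed) or replicate 2 (filled, solid). The C-ending motif is at 0.347 and 0.406 at 51 to 100 nt and at 0.221 and 0.226 in the first window past the dotted line; at 1 to 50 nt each motif has 16 sites or fewer.

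Fractions of single early sites differed less between libraries at higher depth. Over all 226 early sites with both values the root mean square difference was 0.130. At the 125 sites with at least 20 reads in both libraries replicate 2 differed from replicate 1 by a median of -0.0008, with a root mean square of 0.0850. At the 500 later sites of the same transcripts these were -0.0041 and 0.100. The median of the lower coverage was 48 reads for the early and 37 for the later sites. Where both libraries had 50 reads or more, the root mean square was 0.0637 over 59 early and 0.0629 over 160 later sites. Across those 59 sites Pearson's r was 0.982 and Spearman's rho 0.981, as a description, since the sites share 2 libraries. A difference above 0.2 was seen at 5 of the 125 early sites (4%, against 5.94% of all 5221 sites with this depth). They were in Alyref, Ctsl, Gm10263, Gm15710 and Ndufs5. Besides Alyref, the largest differences with at least 50 reads were in Rpl34 (0.545 and 0.368), Mrpl33 (0.0968 and 0.222) and Etfb (0.971 and 0.849).

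Whether an early position was listed at all was less repeatable. Of 187 early sites with at least 20 reads in replicate 1, over all transcripts, 57 (30.5%, 95% Wilson interval 24.3% to 37.4%) had no entry in replicate 2, although that library was deeper. After 150 nt this was 1174 of 6276 sites (18.7%, 17.8% to 19.7%). In the other direction, among replicate 2 sites on transcripts with at least 1 site of 20 reads in replicate 1, 28.7% of 258 early and 16.2% of 7489 later sites had no entry there. Some of these positions were deep: position 58 of Rps10 had 0.184 over 1431 reads in replicate 1 and no entry in replicate 2, where that transcript reached 2269 reads at another position. Position 114 of Rps21, a GGACC, had 0.817 over 2108 reads in replicate 2 and none in replicate 1, although position 61 of that transcript had 1309 reads there. Banf1, Myl6 and Cdk1 had early sites with 158, 148 and 132 reads in replicate 1 and no entry in replicate 2. The criterion for listing is not given in the sources used here.

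The highest early sites were nearly fully scored as modified in both libraries. Among the 125 early sites so covered, 15 reached 0.9 or more in each of the libraries (12%), against 10.4% of the later sites of the same transcripts and 9.37% of all such sites. GGACA accounted for 12 of the 15. Nip7, a ribosome biogenesis factor, had 1 over 65 reads and 1 over 116 reads at position 145. Ndufb9, a subunit of respiratory complex I, had 0.977 over 148 reads and 0.995 over 218 reads at position 133. Atp6v1f, a proton pump subunit, had 0.976 ± 0.0161 at position 96 and Rfc3 0.959 ± 0.000778 at position 108 (each SD, n = 2). Spc25, a kinetochore subunit, had 1 in both libraries, over 28 and 61 reads. The exceptions in motif were GGACC in Med30 and Tm2d2, and the GGACT of Pebp1, an inhibitor of Raf kinase, with 0.920 over 63 reads and 0.935 over 118 reads at position 48.

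At the other end, 10 of the 125 sites had a fraction of at most 0.1 in both libraries (8.0%), against 11.4% of the later sites and 10.1% of all such sites. Psmc5, a proteasome ATPase, was lowest among deep sites, with 0.0189 over 61 reads and 0.0320 over 139 reads at the GGACT motif, position 95. Rtraf had 0.0515 ± 0.0116 at position 93 and Jpt1 0.0554 ± 0.0213 at position 145, both GGACC (each SD, n = 2). H3f3b, a gene of histone H3.3, had 0.0904 over 228 reads and 0.0667 over 509 reads at the AGACT motif, position 116. Lsm5 held a GGACA in this class, at position 140, with 0.0815 over 207 reads and 0.05 over 271 reads. At position 81 of the same transcript another GGACA had 0.762 over 202 reads and 0.685 over 264 reads. The shares at both ends were near those of all sites.

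**Figure D4:**
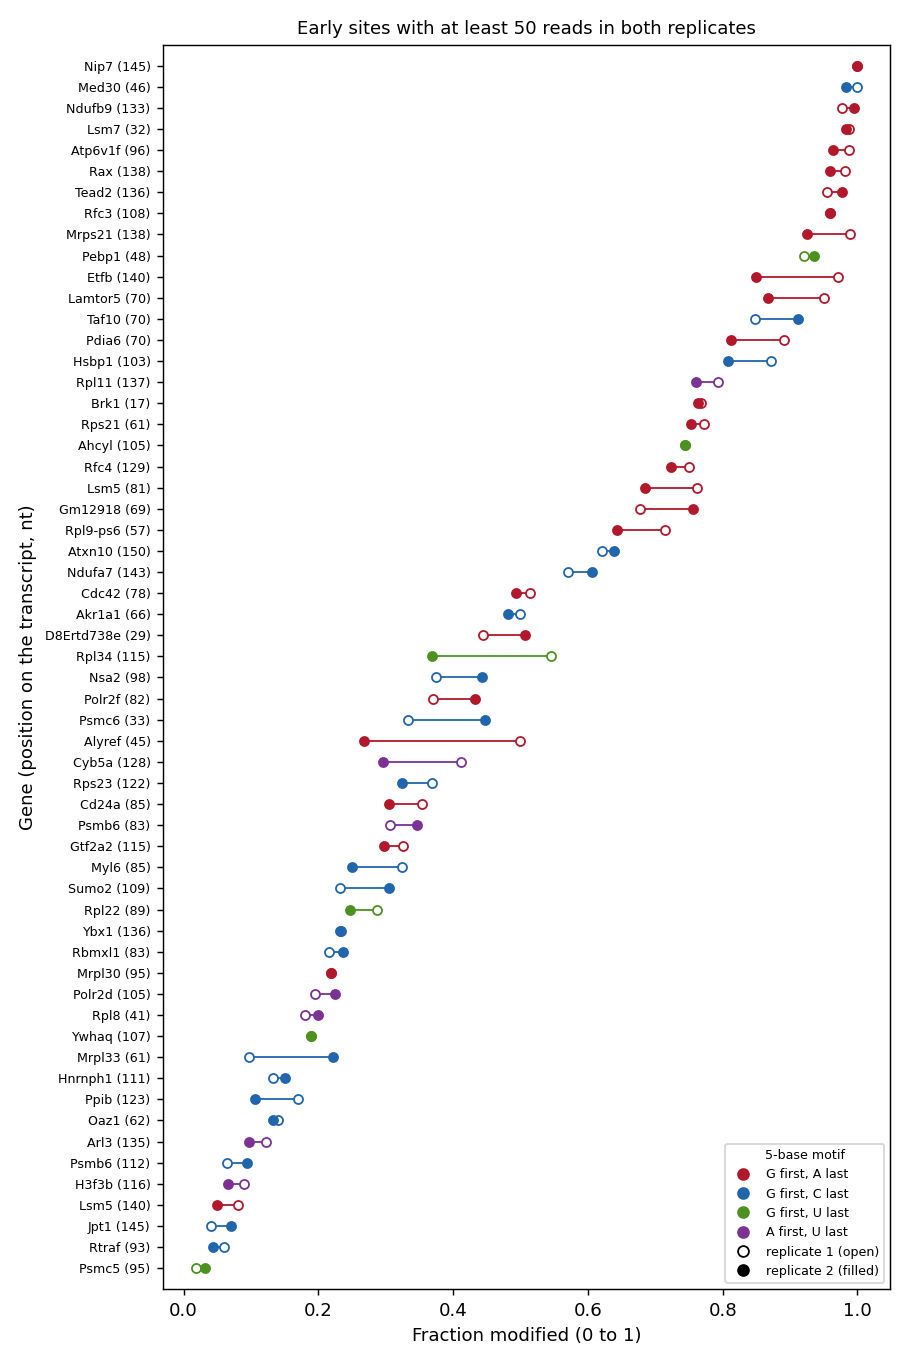
Fraction modified (x axis, 0 to 1) at 58 of the 59 early sites with at least 50 reads in both libraries, each labelled by gene and position in nt; open points are replicate 1, filled points replicate 2, and colours give the first and last base of the motif. Sites range from Psmc5 at 0.0189 and 0.0320 to Nip7 at 1 in both, and the longest line is Alyref, at 0.5 and 0.268.

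Among genes of transcription and development, 16 eye-field and retinal progenitor genes were looked up, and 10 had a replicate 2 site. Of these 10 the only member was Rax, the homeobox gene whose activity the cell line reports. Its GGACA at position 138 had 0.981 (60 reads) in replicate 1 and 0.960 (78 reads) in replicate 2, above the mean of its later GGACA sites, 0.575 and 0.551. Tead2, the DNA-binding partner of Yap, had 0.955 over 71 reads and 0.977 over 144 reads at position 136, against 0.442 and 0.446 at its 3 later GGACA sites. Chosen after their values were seen were Taf10, a subunit of TFIID, with 0.848 over 109 reads and 0.912 over 178 reads at a GGACC, and Lmo4, a LIM-only cofactor, with 0 over 20 reads and 0.0833 over 39 reads, and Id2, a relative of Id4, listed in replicate 2 only, with 0.0317 over 68 reads. The list of 20 genes that write, erase or read m6A had 13 with a replicate 2 site, none of them within 150 nt. Of all 3919 genes with a site, 8.27% had one there. Neither 0 among these 13 nor 1 among the 10 of the eye-field list is set apart from that share. Of 7 neural retina progenitor markers 6 were listed in each library. None of the 7 pluripotency and the 7 mesoderm and endoderm markers was listed in either, while of 5 pigment epithelium markers 1 was listed in replicate 1 and 3 in replicate 2, and of 5 neuronal markers 1 in each. None of these pigment epithelium or neuronal markers had a site of 20 reads in replicate 2.

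The genes of cytoplasmic ribosomal proteins held the deepest early sites. By symbol 14 of the 324 genes (4.32%) belonged to them, against 1.56% of all genes with a replicate 2 site, and they held 18 early sites. This count includes Rps19bp1, which by name is a binding partner. Their median fraction was 0.545 in replicate 1 (13 sites) and 0.510 in replicate 2 (18 sites), against 0.537 and 0.411 at later sites of the same transcripts. Rps23 had 0.368 over 1713 reads and 0.325 over 2550 reads at the GGACC motif, position 122. Of those with at least 20 reads in both, Rpl11 was highest, at 0.793 over 1200 reads and 0.760 over 1902 reads, and Rpl8 lowest, at 0.180 over 1223 reads and 0.199 over 1996 reads. Both of these were AGACT sites.

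Ribosomal protein genes also show how copies and isoforms enter the list. Rpl9 and its pseudogene Rpl9-ps6 had 3 early sites each, and in both a GGACA was followed 65 nt later by a GGACT. In replicate 2 the GGACA had 0.636 over 24 reads in Rpl9 and 0.644 over 124 reads in Rpl9-ps6, and the GGACT had 0.05 and 0.0808. Reads of such near-identical copies may be shared, so these are uncertain. Another Rpl9 transcript, left out by the rule on 1 transcript per gene, had a GGACA at position 103 with 0.804 over 1127 reads and 0.794 over 1773 reads. Rpl22 had a GGACT on 3 transcripts, at positions 87, 89 and 103, with 0.280, 0.247 and 0.255 in replicate 2. In all, 12 early sites lay on other transcripts of member genes, and 12 of the 343 sites were in 9 genes named as pseudogenes or predicted genes.

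The mitochondrial genes covered the whole range. By symbol, mitochondrial ribosomal proteins made up 8 of the 324 genes (2.47%, against 1.61% of all genes with a site), and oxidative phosphorylation 7 (2.16%, against 1.38%). The oxidative phosphorylation list counts Ndufaf2 but leaves out the member Cox17. The 8 mitochondrial ribosomal protein sites, 1 per gene, had medians of 0.297 and 0.361, below the 0.5 and 0.513 of later sites on the same transcripts. Mrps21 was highest, with 0.989 over 113 reads and 0.925 over 96 reads, and Mrpl48 lowest. Mrpl30, chosen after its values were seen, had 0.220 over 64 reads and 0.219 over 101 reads at a GGACA. The 7 oxidative phosphorylation sites had medians of 0.563 over 4 sites and 0.474 over 7 sites, against 0.25 and 0.177 at their later sites. Ndufb9 was the highest of them and Ndufaf2, an assembly factor of complex I, the lowest, with 0.167 over 21 reads and 0.2 over 51 reads. Both lists hold few sites of mixed motifs, with 4 of 8 and 2 of 7 being GGACA.

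The proteasome genes made up 7 of the 324 genes (2.16%, against 0.970% of all genes with a site) and held 8 early sites. Their medians were 0.333 and 0.487, against 0.286 and 0.290 at later sites. Among ATPase subunits with 20 reads in both libraries, Psmc5 was lowest and Psmc1 highest, with 0.839 over 37 reads and 0.898 over 87 reads, although both sites were GGACT. Psmc3, listed in replicate 2 only, had 0.957 over 77 reads at a GGACA. Psmb6, a catalytic subunit, had 0.307 over 237 reads and 0.347 over 354 reads at the AGACT motif, position 83, and 0.0648 and 0.0939 at the GGACC motif, position 112. By symbol, splicing genes (Srsf, Snrp, Sf3 or Hnrnp) made up 3 of the 324 (0.926%, against 1.20% of all genes with a site). Translation factors (Eif or Eef) made up 2 (0.617%, against 1.30%). Counts this small set neither list apart from its share of all genes. Members with other symbols, such as Snrnp70 and Gspt1, were not counted. Of the 3 splicing genes so counted, Hnrnph1 had 0.133 over 57 reads and 0.151 over 150 reads at position 111, while Hnrnpf and Sf3b1 were listed in replicate 2 only. The translation factor symbols gave Eif3j2 and Eef1akmt4, both with 20 reads in replicate 2 and no value in replicate 1. The second is by name a methyltransferase of a factor. No chaperone gene by symbol (Hsp, Cct or Dnaj) was a member, of 36 with a site. Of the 3919 genes with a replicate 2 site, 8.27% were members. Chaperone genes with other symbols, such as the members Pfdn2 and Cdc37, were not counted.

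The clamp loader of DNA replication gave 3 early sites, chosen for mention after their values were seen. Rfc3 had 0.960 and 0.959 at a GGACA. Rfc4 had 0.750 over 75 reads and 0.723 over 126 reads, also at a GGACA. Rfc5 had 0 over 18 reads and 0.111 over 42 reads at the GGACC motif, position 51. The 3 subunits of 1 complex thus did not overlap in fraction.

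Where a gene had more than 1 early site, the sites could differ sharply over a few bases. Such genes were 16 of 324, 13 with 2 sites and 3 with 3. In Sar1a, a COPII GTPase, a GGACC at position 31 had 0.875 over 19 reads and 0.857 over 33 reads. A GGACT at position 39 of the same transcript had 0.278 over 21 reads and 0.231 over 44 reads. In Cat, the gene of catalase, a GGACA at position 131 had 0.800 and 0.920 and a GGACC at position 140 had 0.125 and 0.0417, over 13 reads in replicate 1 and 36 and 37 in replicate 2. Flywch2 had 3 early sites, 1 of which, a GGACA at position 84, had 1 over 40 reads in replicate 2 and no value in replicate 1. Apip had 0.938 and 1 at a GGACA and 0.769 and 0.882 at an AGACT, over 21 and 25 reads.

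The deposited gene intervals, whose build the tables do not name, put Nip7 at chromosome 8, 107783509 to 107787563, Ndufb9 at chromosome 15, 58805605 to 58811337, Psmc5 at chromosome 11, 106146980 to 106153946, and Rps23 at chromosome 13, 91071077 to 91073069. Deposited starts lay within 1000 bases of those in RefSeq GRCm38.p6 for 2.19% of the 319 member genes found there, so those intervals and the windows printed above do not share a build. The submitters' notes name mm10, the same assembly as GRCm38, and the deposited intervals do not match it. Placement of the sites in an untranslated region or coding sequence was not analysed here.

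Just inside and outside the limits of the rule the values were as follows. The 10 sites in the last 5 positions of the window had a median fraction of 0.469 in replicate 2, and the 3 later sites in the next 5 had 0.16. The 35 sites with 20 or 21 reads had a median of 0.6, and the 42 positions with 18 or 19 reads, over all transcripts, 0.308.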

How the data were processed

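The labels and file headers describe 2 direct RNA libraries, each with a table of transcript positions. The fraction modified is a fraction from 0 to 1 and the coverage a count of reads, both as deposited by the authors. The lowest coverage in either table was 5 reads. The submitters' processing notes name the build mm10; base caller, aligner, modification caller and the denominator of the fraction are not given in the sources used here, so no interval was set on a single fraction. Tables listed 26441 and 50099 positions in replicates 1 and 2. Sites were matched on transcript and position with Python 3.11.15, pandas 2.3.3, NumPy 2.4.6 and SciPy 1.17.1. The pairing of early with later sites was tested on simulated fractions. No test was run over sites, which are not replicates.

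The members and gene lists were chosen with earlier results of these data known. Ties for 1 transcript per gene went to the transcript with more sites of 20 reads, then more reads. Named sites were, with at least 50 reads in both libraries, the 8 highest, 5 lowest and 4 most different; the 6 genes with most early sites; the 5 largest early minus later differences each way; the members of the eye-field and m6A lists; the highest and lowest of the other lists; the 3 deepest; and the 3 nearest the start. Among genes with equally many early sites, those with the higher mean fraction were named. Other sites, the pairs within 1 gene and the sequences shown were chosen after their values were seen. Windows were taken from RefSeq by gene symbol. The 3 positions without a gene name were left out, and the tables named minus, with 2 positions in the first 150 nt, were not used. Some sites that these rules name are not reported here.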

Additional observations from a re-analysis of the deposited data

How the results depend on the processing

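The number of early sites was 928 without the minimum of 20 reads, 136 with 50 reads in replicate 2, 172 for the first 100 nt and 569 for the first 200 nt, against 343. With the first 100 nt the median fractions were 0.789 for GGACA, 0.385 for GGACC and 0.458 for AGACT; with the first 200 nt they were 0.268 for GGACT and 0.243 for AGACT. With 20 reads in both libraries AGACT had 0.335, with 50 reads GGACC had 0.314 and AGACT 0.210, with sites listed in both AGACT had 0.347, and without pseudogenes and predicted genes 0.348. The GGACC share was 37.4% with 50 reads in replicate 2 and 34.4% without a minimum; the AGACT share was 11.5%, 12.1% and, without pseudogenes and predicted genes, 10.3%. The early minus later difference turned negative for GGACT with 20 reads in both (-0.0973) and with the first 100 nt (-0.0181), and for AGACT with 50 reads in both (-0.355) and with later sites only up to position 600 (-0.218). Leaving out a replicate gave -0.0260 to 0.0955 for GGACC. The difference for GGACA and for all motifs stayed above 0 under each setting tried, from 0.0681 to 0.242 for GGACA and from 0.0331 to 0.132 for all motifs; where a filter needs both libraries, the transcript was chosen again after it. In all, 106 of 130 alternative values kept their direction or stayed within the spread. The cause of the others was not tested. Leaving out 1 replicate could not move a median fraction, a motif share or the coverage ratio beyond the SD of 2 libraries. Those values, counted among the 106, were therefore no test. Sites listed in both and the removal of pseudogenes were chosen after seeing the data. No paired analysis was possible because the samples form 1 group, so replicate numbers pair no samples across groups; early and later sites were paired within transcripts. Depth limits replicate 1: 125 of its 226 values rest on at least 20 reads, a depth that the rule required in replicate 2 only.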
